A study of Homo sapiens with 6 samples.

Results

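The 59 genes described here encode the machinery that licenses replication origins, fires them, copies DNA at the fork, supplies deoxynucleotides and controls entry into S phase. They were taken by symbol from the gene table, where all 59 were found among 27776 listed genes, and all 59 passed the filter on low counts. The lowest count of any of them in any library was 134 reads. RNA was sequenced from MDA-MB-231 cells, an established human triple-negative breast cancer line, in 3 control libraries and 3 libraries of cells exposed to khellin, a furanochromone found in the plant Ammi visnaga. The labels used here give no dose, exposure time or vehicle. The first group is control in the sample titles, but the series' design text sets a docetaxel-resistant group beside the khellin group, so whether the control cells, or both groups, were docetaxel-resistant cannot be told from the labels.

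Before S phase, the origin recognition complex, CDC6 and CDT1 load the MCM2 to MCM7 helicase onto DNA, and geminin holds CDT1 in check. The kinases CDC7 and CDK2 then fire origins by recruiting CDC45 and the GINS complex to the loaded helicase, after which polymerases, the PCNA clamp, its loader and the RPA complex carry the fork. Many of these genes are transcribed under E2F factors, which the cyclin D and cyclin E kinases release from the retinoblastoma protein. The RNA came from whole cultures, so a change in the share of cells in S phase and a change in RNA per cell cannot be told apart.

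Library totals ranged from 28631578 to 30956610 counts. Levels are given as CPM, counts scaled to library size with TMM factors (trimmed mean of M values). The groups separated along the first principal component of log2 CPM, which carried 49.1% of the variance. All 6 mesenchymal markers of the line were present, at 3730 to 3934 CPM in sum in control and 3935 to 4079 CPM in khellin libraries, whereas CDH1, ESR1 and PGR were near 0. The mesenchymal markers went both ways. FN1 rose by 0.63 and CD44 fell by 0.29 on the log2 scale (edgeR quasi-likelihood test, Benjamini-Hochberg adjusted p = 0.000151 and 0.00103), and 4 did not pass. The 9 luminal and receptor markers summed to 327 to 351 CPM in control and 391 to 406 CPM in khellin libraries. Among them KRT8, ERBB2 and KRT18 had 4721, 3290 and 2474 mean counts. With khellin KRT8 rose by 0.32 and ERBB2 by 0.19 on the log2 scale (edgeR quasi-likelihood test, Benjamini-Hochberg adjusted p = 0.00155 and 0.019). The other 5 tested did not pass, and ERBB2 missed the threshold of 0.05 without control replicate 2 or any 1 khellin library (up to 0.0785). Of 8 fibroblast and endothelial markers 7 were in the gene table, summing to 8.11 to 8.70 CPM in control and 14.1 to 15.03 CPM in khellin libraries. The 3 that were tested were called higher by the same test. COL1A1 rose by 0.86 on the log2 scale (adjusted p = 0.000129), PECAM1 by 0.62 (0.0232) and PDGFRB by 1.35 (0.0319). PECAM1 missed the threshold without control replicate 2 or khellin replicate 1 or 2 (up to 0.0786). PDGFRB missed it without control replicate 3 or khellin replicate 2 or 3 (up to 0.132). The blood cell markers PTPRC and CD14 summed to 1.56 to 2.02 CPM in control and 2.28 to 3.23 CPM in khellin libraries. CD14, the 1 that was tested, was called higher by 0.57 (adjusted p = 0.0403, edgeR quasi-likelihood test). It missed the threshold under DESeq2 (0.106) and without any 1 library except control replicate 3 (up to 0.138). The part of these markers in the results on replication genes was not tested.

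With khellin, a minority of the replication genes changed, each by less than 1.5-fold. By edgeR's quasi-likelihood test over all 15865 tested genes, Benjamini-Hochberg adjusted, 10 members rose and 3 fell at a threshold of 0.05, and 46 did not pass. The 13 calls are 22.0% of the members, beside 19.4% of all tested genes. The 10 rises are 16.9% of the members, beside 10.6% of all tested genes, and the 3 falls are 5.08%, beside 8.82%. The share of calls was thus close to the background. Counts given below by role or list rest on few genes each and are to be read beside these shares of all tested genes. The median log2 fold change of the members was 0.07, beside 0.00 over all tested genes, and 42 of the 59 lay above 0, beside 50.4% of all tested genes. Changes ranged from -0.37 for CCNE1 to 0.44 for E2F2 on the log2 scale, and 30 members moved by less than 0.1. The control and khellin libraries did not overlap for 30 members, 23 higher and 7 lower with khellin. That is 50.8% of the members, beside 38.2% of all tested genes (20.2% higher and 18.0% lower).

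**Figure D1:**
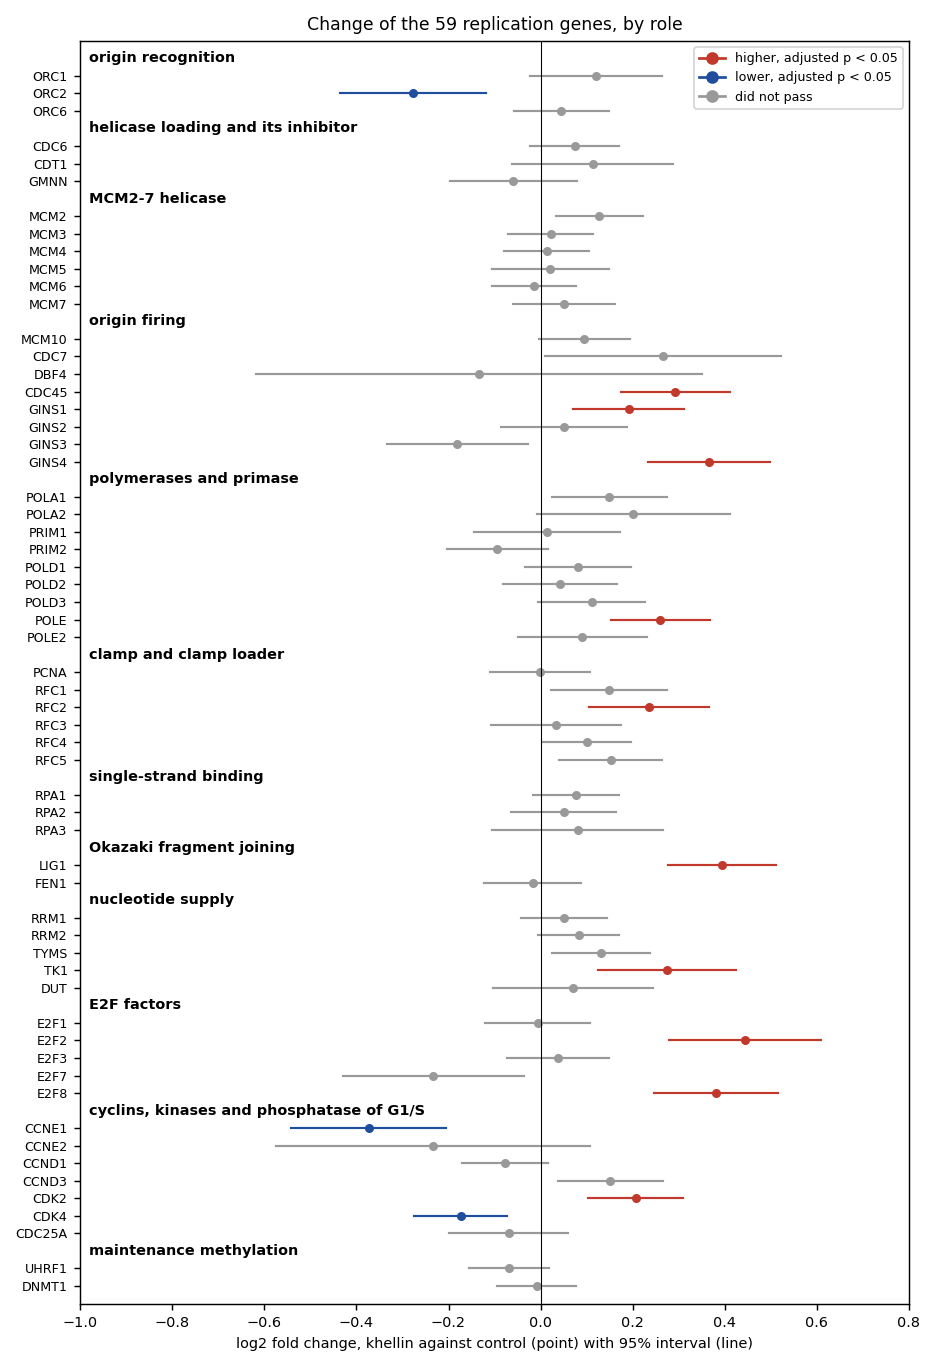
The log2 fold change of khellin against control (point) with its 95% interval (line) for each of the 59 genes, in blocks by role, coloured red where higher, blue where lower and grey where the test was not passed. The 13 coloured genes are spread over 8 of the 12 roles, and the intervals of MCM3 to MCM7 lie between -0.11 and 0.16.

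The count of called members depended on single libraries, and so did that over all tested genes. The latter went from 1681 rises and 1399 falls to 978 and 769 without control replicate 2 and 1073 and 836 without khellin replicate 2. It was 919 and 643 without khellin replicate 3, and 960 and 691 without khellin replicate 1. Without control replicate 3 it was 1867 and 1626, and without control replicate 1 it was 1990 and 1722. Among the members there were 6 rises and 1 fall without control replicate 2, and 6 and 1 without khellin replicate 2. There were 6 and 0 without khellin replicate 3, and 7 and 1 without khellin replicate 1. Without control replicate 3 there were 12 rises and 5 falls, and without control replicate 1 there were 12 and 4. LIG1, E2F8, GINS4, E2F2, CDC45 and POLE, all higher with khellin, kept their call under every alternative tried, including a threshold of 0.01. With library size in place of TMM factors the split of calls was 18 higher and 2 lower, while the split over all genes moved from 1681 and 1399 to 2208 and 986.

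Promoter sequences are shown because many of these genes are known E2F targets and because rising, steady and falling members can be read side by side. RefSeq promoters on GRCh38.p14 were available for 49 of the 59 genes. The letters TTTCCCGC, TTTCGCGC, TTTGCCGC and TTTGGCGC, forms of the E2F site, were searched on both strands over the 250 bases before each listed start. They were found for 20 of the 49 genes (40.8%), against 928 of 27305 genes with a listed promoter (3.40%). Among members with a promoter they stood before 3 of 7 that rose, 0 of 3 that fell and 17 of 39 that did not pass (43.6%). A match is a description of the letters and not a bound site. The 120 bases before the start are printed 5′ to 3′ on the strand of the gene, with the matched letters or their reverse complement in capitals; in MCM6 a match on each strand overlap. LIG1 lies at chr19:48170345-48170464 (minus strand), E2F2 at chr1:23531234-23531353 (minus), POLE at chr12:132687343-132687462 (minus), PCNA at chr20:5126623-5126742 (minus, 1 of 2 listed starts), MCM6 at chr2:135876444-135876563 (minus) and CCNE1 at chr19:29811871-29811990 (plus). The gene spans given below are those of the deposited gene table, and the RefSeq start differs for LIG1 and POLE. The LIG1 window lies wholly inside its gene span, and the POLE window reaches into its own.
LIG1: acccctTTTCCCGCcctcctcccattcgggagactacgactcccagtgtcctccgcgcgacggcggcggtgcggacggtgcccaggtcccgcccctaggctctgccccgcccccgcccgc
E2F2: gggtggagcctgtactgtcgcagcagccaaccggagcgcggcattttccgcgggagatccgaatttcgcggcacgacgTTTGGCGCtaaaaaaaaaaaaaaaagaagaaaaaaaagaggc
POLE: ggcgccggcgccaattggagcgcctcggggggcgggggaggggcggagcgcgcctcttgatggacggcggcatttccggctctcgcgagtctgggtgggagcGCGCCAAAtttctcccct
PCNA: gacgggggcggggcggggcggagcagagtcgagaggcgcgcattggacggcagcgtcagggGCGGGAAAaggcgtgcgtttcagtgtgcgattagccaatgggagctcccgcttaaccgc
MCM6: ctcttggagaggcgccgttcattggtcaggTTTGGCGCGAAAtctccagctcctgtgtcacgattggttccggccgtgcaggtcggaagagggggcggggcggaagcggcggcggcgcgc
CCNE1: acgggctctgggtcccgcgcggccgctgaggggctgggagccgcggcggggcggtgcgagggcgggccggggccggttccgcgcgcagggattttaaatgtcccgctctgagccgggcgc
LIG1, E2F2 and POLE rose with khellin, PCNA and MCM6 carry the same kind of letters and did not pass the test, and CCNE1 fell and has no match in this window. The 3 rising genes printed are the 3 of 7 with a match, so the printed set does not show how often a match goes with a rise.

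Origin licensing genes gave 1 call among 12. ORC2 (2:200908977-200963680, minus strand), a subunit of the origin recognition complex, was at 61.3, 56.8 and 54.3 CPM in the control libraries and at 49.1, 43.6 and 49.5 CPM in the khellin libraries. Every khellin library lay below every control library, and khellin replicate 2 was the lowest of the 6. ORC2 fell by 0.28 in log2 terms (SE 0.071, edgeR quasi-likelihood test, Benjamini-Hochberg adjusted p = 0.0227). It missed the threshold without control replicate 2 (adjusted p = 0.0703) and without khellin replicate 1 (0.0594), 2 (0.0873) or 3 (0.0581). ORC1, the ATPase subunit, and ORC6, the smallest subunit, did not pass, with log2 fold changes of 0.12 and 0.05. The loader CDC6 (0.07), the loader CDT1 (0.11) and geminin (GMNN, -0.06), the inhibitor of CDT1, did not pass either. For these 3 loading genes edgeR's test made 0 calls, none had an unadjusted p under 0.05, and DESeq2 and limma-voom made 0 calls.

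None of the 6 subunits of the MCM2 to MCM7 helicase passed the test. MCM3 was at 451, 453 and 463 CPM in control and 454, 480 and 454 CPM in khellin libraries, and MCM6 at 147, 142 and 144 CPM and 142, 145 and 143 CPM, so the groups overlapped for both. The log2 fold changes of MCM3, MCM4, MCM5, MCM6 and MCM7 were 0.02, 0.01, 0.02, -0.01 and 0.05, and their 95% intervals lay between -0.11 and 0.16. MCM2 was the exception in overlap, with 162, 157 and 162 CPM in control against 174, 180 and 171 CPM in khellin libraries. Its change of 0.13 (95% interval 0.03 to 0.22) missed the threshold (adjusted p = 0.0628, edgeR quasi-likelihood test with Benjamini-Hochberg adjustment). MCM2 was called by edgeR without control replicate 3 (adjusted p = 0.0354), with a filter of 1 CPM in 3 libraries (0.0423) and with library size in place of TMM factors (0.018). With all 6 libraries and the settings of the main test edgeR made 0 calls in the helicase, as did DESeq2 and limma-voom, and 1 gene, MCM2, had an unadjusted p under 0.05.

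Of the 8 origin firing genes 3 rose. CDC45 (22:19479457-19520612, plus strand), which joins the helicase when an origin fires, was at 55.0, 56.8 and 58.9 CPM in control and 69.2, 72.0 and 67.9 CPM in khellin libraries. The groups did not overlap, and CDC45 rose by 0.29 on the log2 scale (SE 0.053, 95% interval 0.18 to 0.41, edgeR quasi-likelihood test, Benjamini-Hochberg adjusted p = 0.00466). GINS4 (8:41529218-41545030, plus strand), a subunit of the 4-part GINS complex, was at 42.5, 40.7 and 39.5 CPM and at 54.9, 53.0 and 50.3 CPM. Every khellin library was above every control library, and GINS4 rose by 0.37 (SE 0.059, adjusted p = 0.00272). GINS1 (20:25391008-25452700, plus strand), its partner, was at 45.9, 47.3 and 48.4 CPM and at 54.3, 52.4 and 55.0 CPM, a rise of 0.19 (SE 0.053, adjusted p = 0.0337). The call on GINS1 was lost under DESeq2 (0.0666) and without control replicate 1 (0.0592) or 2 (0.112) or khellin replicate 1 (0.127), 2 (0.0627) or 3 (0.149), and NINL on the opposite strand had 430.5 mean counts against 1506 for GINS1.

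The other GINS subunits did not pass the test. GINS3 was at 62.9, 62.5 and 71.6 CPM in control and 60.6, 58.3 and 54.9 CPM in khellin libraries, lower without overlap, but its log2 fold change of -0.18 missed the threshold (adjusted p = 0.0967, edgeR quasi-likelihood test with Benjamini-Hochberg adjustment). It was called lower without control replicate 1 (0.0481) and without a filter on low counts (0.0477). GINS2 changed by 0.05 and its groups overlapped. MCM10, which helps activate the helicase, was at 163, 157 and 153 CPM and at 168, 172 and 164 CPM, a difference of 0.09 that did not pass (0.168).

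Neither subunit of the CDC7 kinase passed, and both varied widely between libraries. CDC7, the catalytic subunit, was at 34.4, 27.8 and 26.2 CPM in control and 36.1, 31.4 and 38.6 CPM in khellin libraries, and DBF4, its activating subunit, at 47.2, 32.1 and 26.6 CPM and 35.6, 24.8 and 36.1 CPM. Control replicate 1 was the highest control library for both genes, and khellin replicate 2 the lowest khellin library. The log2 fold changes were 0.27 (SE 0.11) for CDC7 and -0.13 (SE 0.21) for DBF4, neither past the threshold (adjusted p = 0.139 and 0.71, edgeR quasi-likelihood test with Benjamini-Hochberg adjustment). CDC7 was called higher without control replicate 1 (0.00742) and with the length and GC correction (0.00455). The within-library log2 ratio of DBF4 to CDC7 was 0.23 ± 0.219 in control and -0.15 ± 0.166 in khellin libraries (SD, n = 3 each), a difference of -0.38. The exact permutation test, 2-sided, gave p = 0.1 for this ratio, the smallest value 3 against 3 libraries allow, and 0.4 after adjustment over 4 ratios.

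The coefficient of variation over the controls was 30.2% for DBF4, 23.2% for CCNE2, 14.7% for CDC7 and 13.04% for E2F7, against a median of 3.75% over the members. The exons of these 4 genes hold 40.1%, 36.9%, 39.1% and 43.1% G and C. For the other members under 42% GC, the coefficient over the controls was 6.69% for RFC3 (39.1% GC), 6.25% for ORC2 (40.1%) and 5.23% for PRIM1 (40.7%). For GINS1 (41.4% GC), PRIM2 (41.6%) and RFC1 (41.7%) it was 2.61%, 2.07% and 4.35%. Over all tested genes under 42% GC, the median log2 deviation was 0.133 in control replicate 1, -0.108 in control replicate 3 and -0.0907 in khellin replicate 2. The part of base composition in the changes of single members was not tested beyond the length and GC correction. That correction gave 16 rises and 7 falls among the members, beside 2082 rises and 3104 falls among 15299 tested genes. The main test gave 10 and 3 among the members, beside 1681 and 1399 among 15865 tested genes.

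**Figure D2:**
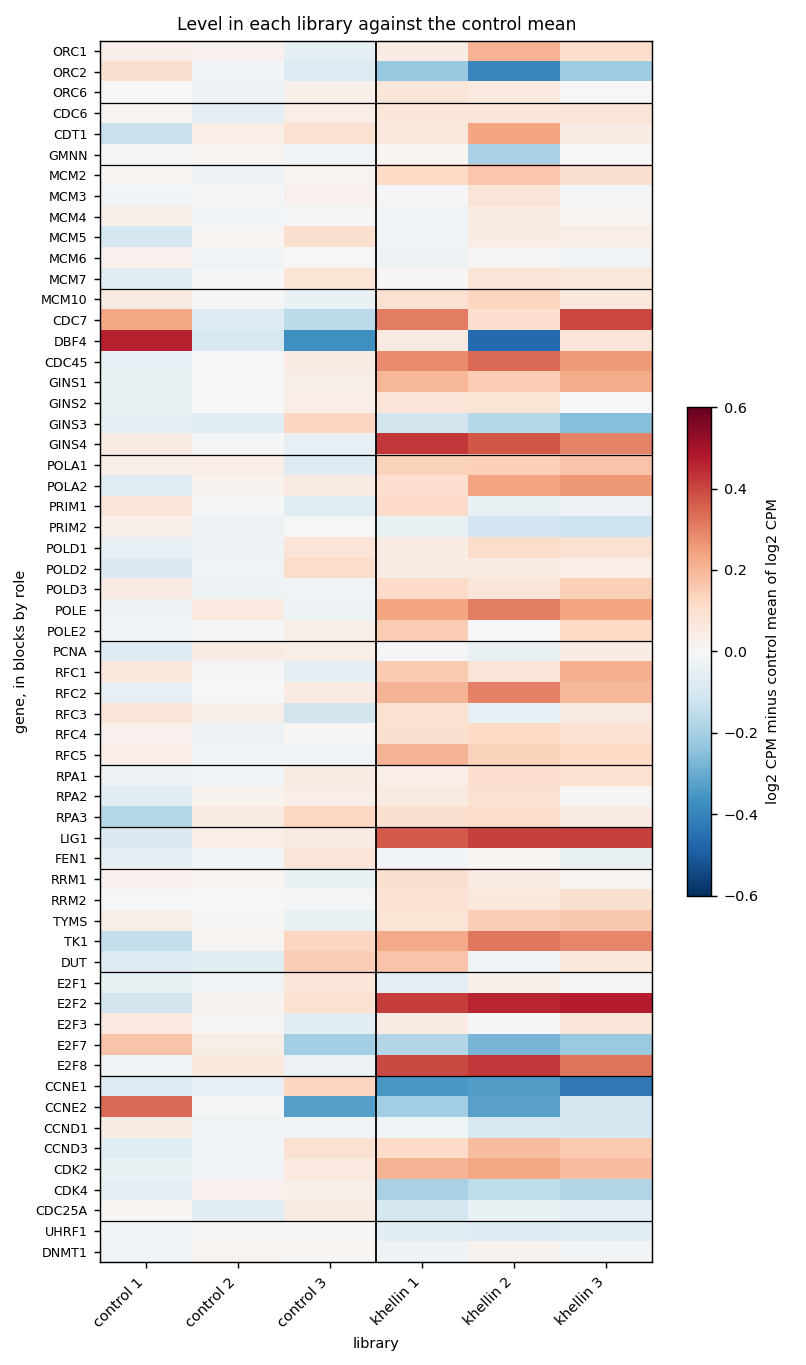
The level of each of the 59 genes (rows, in blocks by role) in each of the 6 libraries (columns), as log2 CPM minus the mean log2 CPM of the controls. LIG1, GINS4, E2F2 and E2F8 are red in all 3 khellin libraries and CCNE1 and ORC2 blue in all 3, while DBF4 and CCNE2 differ most between control libraries.

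At the fork, 1 of 9 polymerase and primase genes passed. POLE (12:132623753-132687376, minus strand), the catalytic subunit of the leading-strand polymerase epsilon, was at 95.6, 102 and 95.6 CPM in control and 115, 121 and 115 CPM in khellin libraries. The groups were separate, and POLE rose by 0.26 on the log2 scale (SE 0.048, 95% interval 0.15 to 0.37, edgeR quasi-likelihood test, Benjamini-Hochberg adjusted p = 0.00548). Its second subunit POLE2 changed by 0.09 and did not pass. For polymerase alpha, which starts each strand with primase, POLA1 was higher without overlap at 48.6, 48.7 and 44.96 CPM against 52.1, 52.3 and 53.3 CPM, and its change of 0.15 missed the threshold (0.0934), which it passed with library size alone (0.0421) and with the length and GC correction (0.0466). POLA2 (0.20), primase PRIM1 (0.01) and PRIM2 (-0.09), and the lagging-strand polymerase delta subunits POLD1 (0.08), POLD2 (0.04) and POLD3 (0.11) did not pass.

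The clamp and its loader gave 1 call among 6. PCNA, the sliding clamp that tethers the polymerases, was at 211, 230 and 228 CPM in control and 222, 217 and 230 CPM in khellin libraries. Its groups overlapped and its log2 fold change was -0.00125, with a 95% interval from -0.11 to 0.11. RFC2 (7:74231499-74254458, minus strand), a small subunit of the clamp loader, was at 40.8, 42.2 and 43.6 CPM and at 48.6, 52.0 and 48.3 CPM, without overlap. RFC2 rose by 0.24 (SE 0.058, edgeR quasi-likelihood test, Benjamini-Hochberg adjusted p = 0.0204). The call on RFC2 was lost without control replicate 2 (0.0794) or khellin replicate 1 (0.0654), 2 (0.0832) or 3 (0.0645). RFC1, RFC4 and RFC5 were higher without overlap by 0.15, 0.10 and 0.15 and did not pass (adjusted p = 0.0944, 0.13 and 0.0595), although RFC1 and RFC5 did without control replicate 1 (0.0426 and 0.0445). All 3 passed with library size alone (0.0392, 0.0379 and 0.0216) and with the length and GC correction (0.02, 0.0481 and 0.0098), and RFC5 also with a filter of 1 CPM in 3 libraries (0.0443). RFC3 changed by 0.03. RPA1, RPA2 and RPA3, which coat single-stranded DNA, changed by 0.08, 0.05 and 0.08 with 0 calls by edgeR, DESeq2 or limma-voom and none at an unadjusted p under 0.05.

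Of the enzymes that finish Okazaki fragments, LIG1 rose and FEN1 did not pass. LIG1 (19:48115445-48170603, minus strand), the ligase that seals them, was at 67.5, 73.7 and 74.0 CPM in control and 92.5, 95.1 and 95.2 CPM in khellin libraries. All khellin libraries lay above the controls. LIG1 rose from 71.7 ± 3.66 to 94.3 ± 1.55 CPM (SD, n = 3 each), 0.39 on the log2 scale (SE 0.052, 95% interval 0.28 to 0.51, edgeR quasi-likelihood test, Benjamini-Hochberg adjusted p = 0.000915). FEN1, the nuclease that trims the flap before ligation, was at 225, 229 and 246 CPM and 230, 235 and 226 CPM, overlapping, with a change of -0.02.

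Among the 5 nucleotide supply genes, the salvage enzyme was the one that passed. TK1 (17:78174091-78187233, minus strand), the cytosolic thymidine kinase, was at 133, 148 and 160 CPM in control and 171, 183 and 179 CPM in khellin libraries. The groups did not overlap, and the control libraries were spread more widely than the khellin libraries. TK1 rose by 0.27 (SE 0.066, edgeR quasi-likelihood test, Benjamini-Hochberg adjusted p = 0.0185), but did not pass without control replicate 2 (0.067) or khellin replicate 2 (0.0726) or 3 (0.0796). RRM2, the subunit of ribonucleotide reductase that sets its activity in S phase, was higher without overlap at 159, 159 and 158 CPM against 169, 166 and 170 CPM, a difference of 0.08 that did not pass (0.174). TYMS, which makes thymidylate, was at 91.6, 89.9 and 86.7 CPM against 94.6, 99.2 and 100 CPM and missed the threshold at 0.13 (0.0835). With library size alone RRM2 (0.0497) and TYMS (0.0317) passed. RRM1 (0.05) and the dUTPase gene DUT (0.07) did not pass. The log2 ratio of RRM2 to RRM1 differed by 0.03 between groups (exact permutation p = 0.5, adjusted 0.667, n = 3 each).

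The E2F factors gave 2 rises among 5. E2F2 (1:23506438-23531233, minus strand), an activator, was at 11.7, 12.8 and 13.5 CPM in control and 16.9, 17.3 and 17.5 CPM in khellin libraries. The khellin libraries were all above the controls, and E2F2 had the largest rise of the 59 genes, 0.44 (SE 0.073, 95% interval 0.28 to 0.61, edgeR quasi-likelihood test, Benjamini-Hochberg adjusted p = 0.00301). E2F8 (11:19224063-19241620, minus strand), an atypical E2F that represses, was at 30.7, 32.6 and 30.4 CPM and 41.1, 41.9 and 38.9 CPM, and rose by 0.38 (SE 0.060, adjusted p = 0.00241) without overlap. E2F7, the other atypical member, was at 210, 191 and 162 CPM and 165, 154 and 160 CPM. Its change of -0.23 missed the threshold (0.0962) with control replicate 3 beside the khellin libraries, and passed without that library (0.000799), under DESeq2 (0.0381) and with the length and GC correction (0.00644). E2F1 (-0.01) and E2F3 (0.04), activators like E2F2, did not pass.

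The kinases of the G1 to S step moved in both directions, with 1 rise and 2 falls among 7. CCNE1 (19:29811991-29824312, plus strand), cyclin E1, was at 21.8, 22.3 and 25.2 CPM in control and 18.1, 18.3 and 17.1 CPM in khellin libraries. It was lower in every khellin library and its log2 level fell by 0.37 (SE 0.075, 95% interval -0.54 to -0.21, edgeR quasi-likelihood test, Benjamini-Hochberg adjusted p = 0.00813), the largest fall of the 59 genes, and missed the threshold without khellin replicate 3 (0.0509). CDK2 (12:55966781-55972789, plus strand), the kinase that cyclin E binds, was at 108, 110 and 116 CPM and 128, 130 and 126 CPM, and rose by 0.21 (SE 0.046, adjusted p = 0.0128). CDK4 (12:57747727-57756013, minus strand), the partner of D-type cyclins, was at 124, 131 and 131 CPM and 113, 116 and 114 CPM, and fell by 0.17 (SE 0.045, adjusted p = 0.0242). Both kinase calls were lost when control replicate 2 or any 1 khellin library was left out, with adjusted p-values up to 0.0684 for CDK2 and 0.111 for CDK4, and that of CDK4 also with library size in place of TMM factors (0.0724). MARCHF9 and TSPAN31 on the opposite strand overlap CDK4, with 616 and 495.3 mean counts against 3619.

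The remaining cyclins did not pass. CCNE2, cyclin E2, was at 42.9, 33.8 and 26.9 CPM in control and 29.5, 27.0 and 31.5 CPM in khellin libraries, overlapping, with a log2 fold change of -0.23 (SE 0.15, adjusted p = 0.317, edgeR quasi-likelihood test with Benjamini-Hochberg adjustment), and was called lower without control replicate 3 (0.0426). CCND1, cyclin D1, was lower without overlap at 659, 629 and 631 CPM against 628, 598 and 595 CPM (-0.08, adjusted p = 0.234), and was called lower with the length and GC correction (-0.11, adjusted p = 0.0423). CCND3, cyclin D3, was higher without overlap at 263, 273 and 295 CPM against 299.7, 315 and 309 CPM (0.15, adjusted p = 0.0651) and was called without control replicate 3 (0.00425), with library size alone (0.0206), without a filter on low counts (0.0413) and with the length and GC correction (0.049). CDC25A, the phosphatase that activates CDK2, changed by -0.07. The log2 ratio of CCNE1 to CCNE2 differed by -0.16 and that of CDT1 to GMNN by 0.18 (exact permutation p = 0.7 and 0.4, adjusted 0.7 and 0.667, n = 3 each). UHRF1 (-0.07) and DNMT1 (-0.01), which copy DNA methylation onto the new strand, gave 0 calls by edgeR, DESeq2 or limma-voom and none at an unadjusted p under 0.05. With the length and GC correction edgeR called both lower, UHRF1 at -0.11 (adjusted p = 0.0154) and DNMT1 at -0.085 (0.031).

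**Figure D3:**
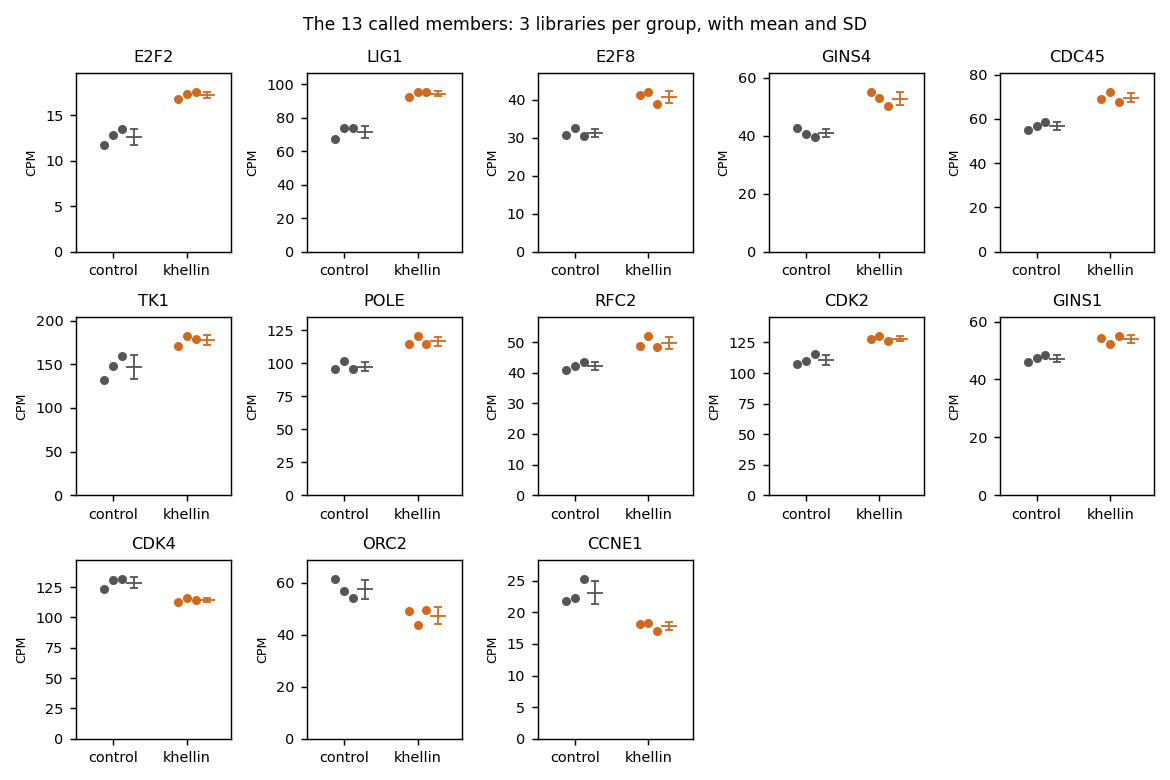
CPM of the 13 called genes in each library (points) with the mean and SD of each group (bars, n = 3), on axes that start at 0. The control and khellin points are separate in all 13 panels, with CDK4, ORC2 and CCNE1 lower with khellin.

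Levels per length spanned a wide range. Scaled to kilobases of annotated exon, the highest means over the 6 libraries were those of PCNA (151.6 CPM per kb), CCND1 (129.1), MCM3 (125.8), FEN1 (93.6) and TK1 (87.2), and the median of the 59 was 21.2 CPM per kb. E2F2, the gene with the largest rise, stood at 2.74 CPM per kb, and POLA2 was lowest at 0.893. Neighbours in this order overlapped in range over the libraries for 48 of 58 pairs, so most adjacent ranks cannot be separated. The length counts exons of all annotated transcripts, which lowers the value of genes such as POLE (16609 bases) relative to PCNA (1471 bases).

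**Figure D4:**
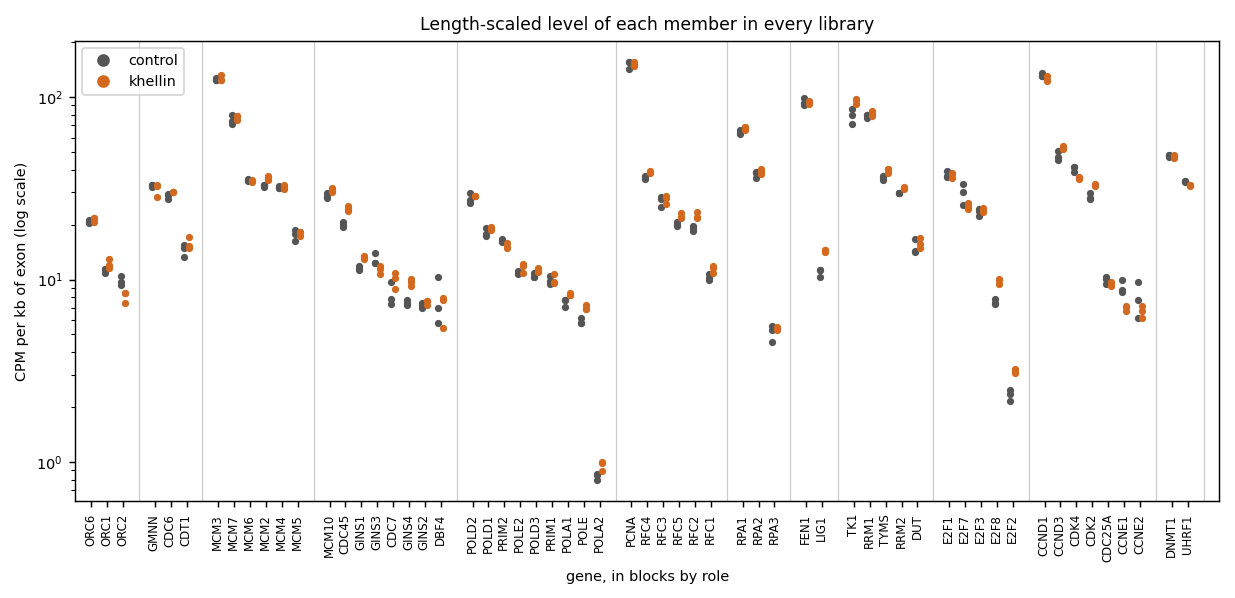
CPM per kilobase of exon (log axis) of each gene in every library, in blocks by role, with control in grey and khellin in orange. PCNA, CCND1 and MCM3 stand above 100 and POLA2 near 1, and the points of one gene lie close together next to the differences between genes.

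Reads in 31 of the 59 genes could fall where another listed gene overlaps, on the opposite strand for 25 and the same strand for 8. For 14 of them an overlapping gene had over 10% of the member's counts, and the values of these genes are less certain. For overlaps on opposite strands, the sources used here do not say whether reads were counted by strand. For overlaps on the same strand, the strand of a read cannot separate the genes. Among the 14 are FEN1, which shares its strand with FADS2 (13887.8 mean counts against 6908), PRIM1 with NACA (6371.3 against 722) and POLA2 with an unnamed protein-coding gene (122.2 against 152). RFC4, RFC5, GINS2, CCNE2 and TYMS each lie opposite such a gene. Of the 13 called genes GINS1 and CDK4 are among the 14.

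Related genes outside the 59 were described in 6 further lists. Of 12 other origin and helicase factors 3 rose and 0 fell, with a median of 0.12, and DBF4B, the second activator of CDC7, rose by 0.37 (SE 0.051, edgeR quasi-likelihood test, Benjamini-Hochberg adjusted p = 0.00113), TICRR, needed to load CDC45, by 0.39 (adjusted p = 0.00191) and the helicase RECQL4 by 0.25 (0.00661). Of 15 fork protection factors 2 rose and 0 fell, against 3 and 1 without control replicate 1. TIMELESS, of the fork protection complex, rose by 0.40 (0.00102) and CHTF18, of an alternative clamp loader, by 0.19 (0.021), a call lost without control replicate 2 or any 1 khellin library (up to 0.101), while POLE3 (-0.12) missed the threshold (0.062) and was called lower with the length and GC correction (0.004). Of 7 chromatin assembly factors 1 rose. This was the histone chaperone ASF1B (0.23, adjusted p = 0.0382), whose call was lost without control replicate 1 or 2 or any 1 khellin library (up to 0.137), while CHAF1B (0.15) and SLBP (-0.08) did not pass. The lists with 0 falls had 0 falls by DESeq2 and limma-voom too, and 0, 1 and 0 members lower at an unadjusted p under 0.05.

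Other nucleotide enzymes went both ways, with 3 of 16 higher and 3 lower. SHMT1, which feeds folate carbon into thymidylate, rose by 0.36 (adjusted p = 0.00259, edgeR quasi-likelihood test with Benjamini-Hochberg adjustment), UMPS, which completes uridine monophosphate, fell by 0.25 (0.00801, and 0.0543 without khellin replicate 1), and the mitochondrial kinase TK2 rose by 0.27 (0.0112, and 0.0634 without control replicate 2 or 0.0541 without khellin replicate 3). Of 18 other G1/S regulators 4 rose and 2 fell. CDKN2C, an inhibitor of CDK4 and CDK6, had the largest change there and went from 22.3, 22.6 and 23.5 CPM to 43.9, 47.8 and 44.8 CPM, a rise of 0.999 on the log2 scale (SE 0.061, adjusted p = 1.32e-05). CCNA2, cyclin A2, rose by 0.43 (0.00166), and CDKN1A, the inhibitor p21, fell by 0.34 (0.00259). Together these 5 lists had 18 calls among 68 genes (26.5%), beside 22.0% of the members and 19.4% of all tested genes. Of these calls 13 were higher and 5 lower. Single libraries moved these counts both ways, to 16 and 7 without control replicate 1 and 14 and 4 without control replicate 3. They were 9 and 3 without control replicate 2 and 9 and 1 without khellin replicate 1. Without khellin replicate 2 they were 11 and 3, and without khellin replicate 3 they were 8 and 2. The nucleotide enzymes had 1 rise and 2 falls without control replicate 2, 2 and 0 without khellin replicate 1 and 1 and 1 without khellin replicate 3. They had 4 and 3 without control replicate 3, and 3 and 2 without khellin replicate 2. The G1/S regulators had 6 rises and 3 falls without control replicate 1, and 1 fall without any 1 of the other 5 libraries. In a list of 28 mitosis and G2/M genes 22 rose (78.6%, beside 10.6% of all tested genes) and 0 fell. None was lower by DESeq2, limma-voom or at an unadjusted p under 0.05. Without any 1 library 20 to 25 of them rose. The median of that list was 0.44, with rises of 0.90 for KIF20A, 0.58 for AURKA and 0.55 for KIF2C. All groups compared here come from the same 6 libraries, and no test of the difference between lists was made.

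**Figure D5:**
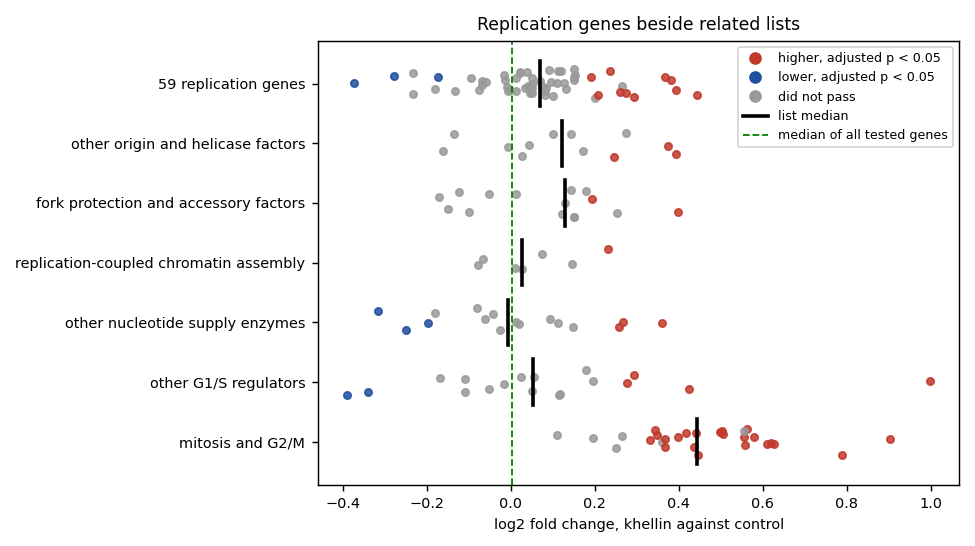
The log2 fold change of every tested gene in the 59 replication genes and in 6 related lists, 1 point a gene, red where higher, blue where lower and grey where the test was not passed, with a black bar at the list median and a green dashed line at the median of all tested genes. The replication genes centre at 0.07 and the mitosis and G2/M genes at 0.44.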

How the data were processed

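Polyadenylated RNA of 3 control and 3 khellin libraries was sequenced after TRIzol extraction and VAHTS Universal library preparation, per the labels' protocols. The authors deposited raw read counts per gene, made with fastp, HISAT2 and HTSeq per the submitters' processing notes; the strand setting, build and annotation release are not given in the sources used here. GENCODE 29 holds 25378 of the gene identifiers, and 25358 of these overlap it on GRCh38 on the same chromosome and strand, so coordinates are on GRCh38, inferred by comparison. Groups come from the sample titles. Titles speak of biological replicates, but whether these were separate cultures is not stated in the sources used here, so p-values measure the spread between these samples. Chi-square per degree of freedom between libraries of a group was 1.91 to 20.8, so none was a copy.

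From the deposited counts, genes were kept with filterByExpr (15865) and compared by the quasi-likelihood test of edgeR. Settings were TMM factors, robust fit, group only, 2-sided, Benjamini-Hochberg over all tested genes and adjusted p under 0.05. The code was also run on simulated counts with a common dispersion. Those had no dependence on GC content that differed between libraries, so that run does not cover such differences. The biological coefficient of variation was 6.95%. Standard errors of log2 fold changes are their size divided by the square root of F. Within-library ratios used counts plus 0.5 and exact permutation tests. The members, roles and lists were chosen with earlier results of these data known. Text names all 59 members and, of each other list, the 3 genes with the smallest p. Alternatives were RLE, upper quartile and library size scaling, other filters, DESeq2, limma-voom, a replicate block, a length and GC correction, a threshold of 0.01 and each library left out. Tools were Python 3.11.15, SciPy 1.17.1, R 4.3.3, DESeq2 1.42.0, edgeR 4.0.16, mgcv 1.9.3 and limma 3.58.1.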

Additional observations from a re-analysis of the deposited data

How the results depend on the processing

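Of 15299 tested genes, the correction for length and GC content gave 2082 higher and 3104 lower (40.1% of calls higher, against 54.6%). Among the members it gave 16 higher and 7 lower. With a replicate block added it gave 2909 genes and 6 members lower. At an adjusted p under 0.01 there were 808 genes higher and 608 lower, and 6 members higher and 1 lower. Scaling to library size alone gave 18 members higher. Leaving out 1 library gave 919 to 1990 genes higher, 643 to 1722 lower, 6 to 12 members higher and 0 to 5 lower. The member median log2 fold change of 0.07 was 0.057 with RLE factors, 0.12 with library size, 0.054 with DESeq2, 0.044 with the correction, 0.044 with the correction and block, and 0.057 to 0.091 over the left-out libraries. The cause of these moves was not tested. The log2 ratio of CCNE1 to CCNE2 ranged from -0.37 to 0.072 over left-out libraries.

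Members near 0 changed sign under some settings, none past the threshold. With the correction, and with correction and block, MCM3 was at -0.00068 and -0.00081, MCM4 at -0.032 and -0.032, MCM5 at -0.047 and -0.046, and PCNA at 0.0057 and 0.0063. With library size PCNA was at 0.043, MCM6 0.030, FEN1 0.027, E2F1 0.038 and DNMT1 0.035. DESeq2 gave MCM4 at -0.0023 and PRIM1 at -0.0026, upper quartile factors PCNA at 9.09e-05, and a filter of 1 CPM in 3 libraries PCNA at 0.0056 and E2F1 at 0.00056. Left-out libraries gave ranges of -0.095 to 0.0058 for GMNN, -0.0040 to 0.036 for MCM3, -0.0034 to 0.030 for MCM4, -0.031 to 0.068 for MCM5, -0.30 to 0.13 for DBF4, -0.038 to 0.053 for PRIM1, -0.0019 to 0.096 for POLD2, -0.041 to 0.020 for PCNA, -0.022 to 0.074 for RFC3, -0.00052 to 0.14 for RPA3, -0.044 to 0.021 for FEN1, -0.029 to 0.029 for E2F1 and -0.023 to 0.0033 for DNMT1.

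Same-numbered libraries did not deviate together (correlations 0.136, 0.0339 and -0.119), so the numbers do not pair them. The replicate block gave 1533 genes higher and 1282 lower, 9 members higher and 3 lower, and a median of 0.072. GINS1 missed the threshold with the block (adjusted p = 0.0587 by edgeR), as CHTF18 did with block and correction (0.0623). Of the 46 uncalled members, 15 passed under at least 1 alternative. The same share over all uncalled genes was not counted, so this number has no background beside it. Among the 95% intervals of all 46, that of DBF4 reached lowest (-0.62) and that of CDC7 highest (0.52).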
